A study of Mus musculus with 8 samples.

Results

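Airway basal and stratified keratin genes were examined as a set of 10, Krt5, Krt14, Krt15, Krt17, Krt4, Krt13, Trp63, Ngfr, Dsg3 and Dsc3, chosen by name as genes of basal cells of the trachea and proximal airways. All 10 were found by symbol among the 20842 named genes of the array, through 26 array features. The RNA came from whole lungs of C57Bl/6J mouse pups that were kept in a chamber at 20% oxygen from postnatal day 0 to day 3. Lungs of 4 pups labelled wild type and 4 labelled Fgf10 +/-, which carry 1 disrupted copy of the gene for the growth factor FGF10, were each hybridised to a 1-colour (Cy3) array. The values are log2 signals that had already been brought to a common distribution, with every array at a median of 3.47. The labels call the samples independent but name no litter or sex. The p-values set group differences against the spread between these samples. A litter or sex difference between the groups could not be told apart from that of the labels.

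Basal cells sit on the basement membrane of the tracheal and proximal airway epithelium and can renew the secretory and ciliated cells above them. They are known for the transcription factor p63 (Trp63), the keratin pair 5 and 14, the neurotrophin receptor p75 (Ngfr) and strong desmosomes. Keratins are intermediate filament proteins that assemble as pairs of a type I chain, here keratins 13, 14, 15 and 17, and a type II chain, here keratins 4 and 5. Keratins 4 and 13 pair in the suprabasal layers of stratified epithelium such as the oesophagus, keratins 6, 16 and 17 appear in activated or wounded epithelium, and desmoglein 3 and desmocollin 3 (Dsg3, Dsc3) are the desmosomal cadherins of basal layers.

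Most of these genes gave little signal in newborn lung. Of the 10 genes, 7 had a mean log2 signal under 4 over the 8 arrays (Krt5, Krt14, Krt17, Krt4, Krt13, Dsg3 and Dsc3), where 37.6% of all named genes did. Only Krt15, Trp63 and Ngfr lay at 4 or more, and on all 8 arrays. The defining keratin pair of basal cells, Krt5 and Krt14, was therefore near the floor of the arrays, while the markers of lung itself were bright: the surfactant gene Sftpc had a mean of 15.98 and the club cell gene Scgb1a1 one of 15.94. The set is accordingly described as genes known from basal cells, not as a measure of those cells. In whole-lung RNA, fewer cells of a type and less RNA per cell cannot be told apart.

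No member passed the test between the groups. In limma, with p-values adjusted over all 20842 genes by Benjamini-Hochberg, 0 of the 10 had an adjusted p under 0.05, as did 0 (0%) of all genes, although 2298 genes (11%) had an unadjusted p under 0.05 and 414 passed when limma was run with a variance trend and robust settings. Krt15 was the 1 member of 10 with an unadjusted p under 0.05. The groups did not overlap for 0 of the 10 members, against 7.39% of all genes. The mean was lower in the libraries labelled Fgf10 +/- for 5 of the members and higher for 5, and lower for 50.2% of all genes, and the median log2 difference was -0.05 over the members and -0.00 over all genes.

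Fgf10 itself did not check the labels, because no source used here says whether its features read the disrupted stretch. Its log2 signal averaged 7.95 ± 0.32 (SD, n = 4) in the libraries labelled Fgf10 +/- and 7.46 ± 0.40 (SD, n = 4) in wild type, which is no lower in the former, and every direction here rests on the labels. Wild-type replicate 4 stood apart in genes of cartilage and skeletal muscle. The mean log2 signal of 11 cartilage genes was 7.47 in that library and between 3.81 and 4.02 in the other wild-type libraries, and that of 14 skeletal muscle genes was 7.42 against 4.28 to 4.31. Results for the members are given with and without it where it matters.

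**Figure D1:**
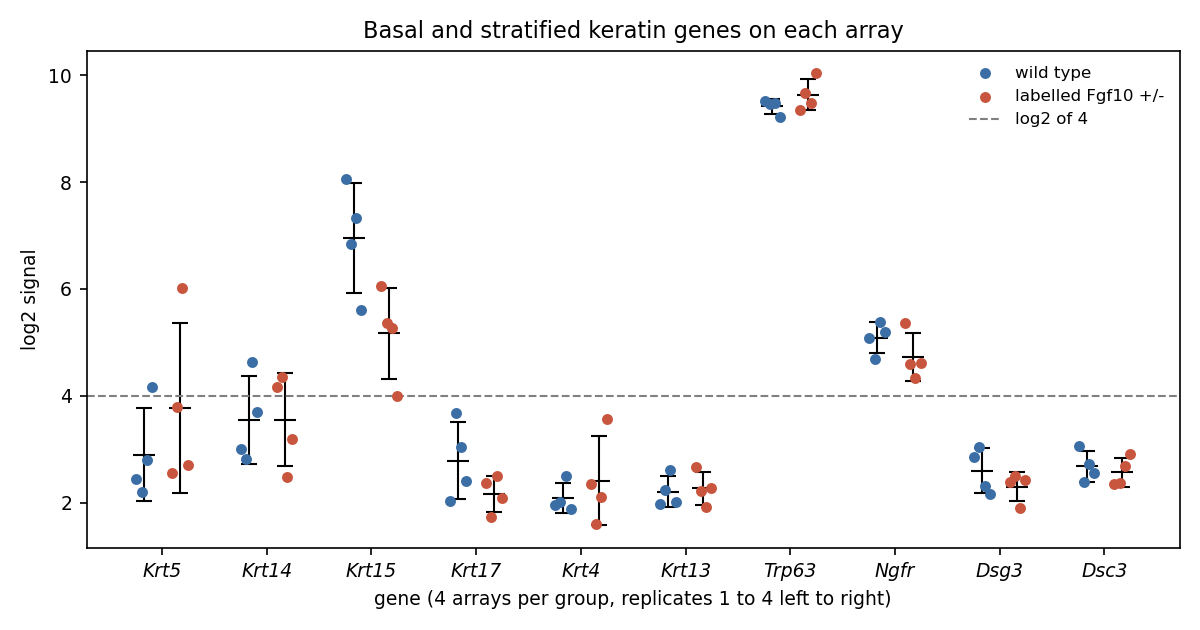
Log2 signal of the 10 genes (vertical axis) on each of 8 arrays, 4 labelled wild type (blue) and 4 labelled Fgf10 +/- (red). Points are arrays, horizontal bars the group means with 1 SD, and the dashed line a log2 signal of 4. Krt15, Trp63 and Ngfr lie at 4 or more on every array, and the other 7 genes have means under 4.

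Krt15 had the widest separation of the 10. Keratin 15 is a type I keratin of basal layers, known from stem cell compartments of stratified epithelium and from basal cells. Its log2 signal in wild-type replicates 1 to 4 was 8.05, 6.84, 7.33 and 5.61, and in replicates 1 to 4 labelled Fgf10 +/- it was 6.05, 5.37, 5.26 and 4.00. The wild-type values were the higher ones in 15 of 16 pairs of a wild-type and a labelled Fgf10 +/- library. The exception was wild-type replicate 4, at 5.61, which lay below replicate 1 labelled Fgf10 +/-, so the groups overlapped.

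The Krt15 group means were 6.96 ± 1.03 (SD, n = 4) in wild type and 5.17 ± 0.85 (SD, n = 4) in the libraries labelled Fgf10 +/-. They differed by -1.79 on the log2 scale (standard error 0.58, 95% interval -3.12 to -0.45), which corresponds to a 3.45-fold higher wild-type signal with an interval from 1.36-fold to 8.71-fold. It did not pass (limma adjusted p = 0.306; unadjusted p = 0.0151; two-sided exact permutation p = 0.0571 over 70 assignments, where the smallest possible is 0.0286). Without wild-type replicate 4, the library with cartilage and muscle signal, the difference was -2.23 and the groups no longer overlapped, with an adjusted p of 0.157 in limma. Leaving out each library in turn gave differences from -2.23 to -1.40, all of the same sign. With a block on the replicate number, the standard error was 0.15 in place of 0.58 (limma adjusted p = 0.293). The array holds 1 named feature for Krt15, so no second feature can be set beside it.

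Krt15 also varied widely within each group. Its pooled within-group SD was 0.94, where the median gene with a mean log2 between 4 and 8 had 0.30 and the upper quartile 0.44. Over the 8 arrays the 3 genes most like it, by Pearson correlation among 13001 genes with a mean log2 of 4 or more, were Lrrc56 (r = 0.988), Slamf9 (r = 0.986) and Sdc1 (r = 0.984), the last encoding the heparan sulfate proteoglycan syndecan-1 of epithelial surfaces. With wild-type replicate 1 and replicate 4 labelled Fgf10 +/-, the highest and lowest Krt15 arrays, left out, r was 0.985, 0.955 and 0.987. The 8 points share the group difference and the libraries, and the genes were picked for their correlation, so these values only describe the arrays. Lrrc56 differed by -0.31, Slamf9 by -0.75 and Sdc1 by -0.47 on the log2 scale between the groups, and none passed in limma (adjusted p between 0.367 and 0.445).

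Trp63 encodes p63, the transcription factor that basal cells and stratified epithelia need. The brightest of its 4 features had log2 signals of 9.51, 9.46, 9.48 and 9.21 in wild-type replicates 1 to 4 and 9.35, 9.67, 9.49 and 10.03 in replicates 1 to 4 labelled Fgf10 +/-. The groups overlapped, and replicate 4 labelled Fgf10 +/- was the highest array. The means differed by 0.22 (standard error 0.16, 95% interval -0.16 to 0.60; limma adjusted p = 0.689; exact permutation p = 0.229). For this feature the interval lies inside a log2 change of 1 in either direction, and it is narrower than that of Krt15.

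The features named for Trp63 disagreed with each other in level. The bright feature is annotated to RefSeq transcript NM_001127261, a Trp63 transcript. The other 3, annotated to NM_011641, AK048623 and AK138305, had means between 2.01 and 2.86 and lay under 4 on all 8 arrays. Between the groups those 3 differed by -0.07, -0.03 and 0.10, and none passed. Features differ in sequence and binding, and no source used here says which part of the gene each reads, so the bright feature cannot be read as the level of p63 messenger RNA as a whole. The 3 genes most like the bright feature over the 8 arrays were Dlg5 (r = 0.917), Fbxo30 (r = 0.916) and Gm4971 (r = 0.910). Without replicate 4 labelled Fgf10 +/- and wild-type replicate 4, the arrays farthest from the Trp63 median, these were 0.572, 0.787 and 0.775, so the correlations rest in part on those 2 arrays.

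Ngfr encodes p75, a receptor for neurotrophins that is used to sort tracheal basal cells and is also found on Schwann cells and nerves. Its brightest feature gave log2 signals of 5.08, 4.69, 5.39 and 5.19 in wild-type replicates 1 to 4 and 5.37, 4.59, 4.33 and 4.62 in replicates 1 to 4 labelled Fgf10 +/-. The groups overlapped, and the difference of -0.36 (standard error 0.25, 95% interval -0.93 to 0.20) did not pass (limma adjusted p = 0.653; exact permutation p = 0.229).

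The 10 features named for Ngfr, all annotated to the same transcript, show how far such a value carries. The mean was lower in the libraries labelled Fgf10 +/- for 5 of these features and higher for 5, with differences from -0.37 to 0.43, and all 10 had a mean of 4 or more. On a single array their SD ranged from 0.40 to 0.66, as large as the difference shown by the brightest feature. Averaged over the 10 features, the signal was 4.57 ± 0.24 (SD, n = 4) in wild type and 4.52 ± 0.08 (SD, n = 4) in the libraries labelled Fgf10 +/-, a difference of -0.05 (exact permutation p = 0.743). The median correlation between pairs of these features over the 8 arrays was 0.05 (45 pairs).

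**Figure D2:**
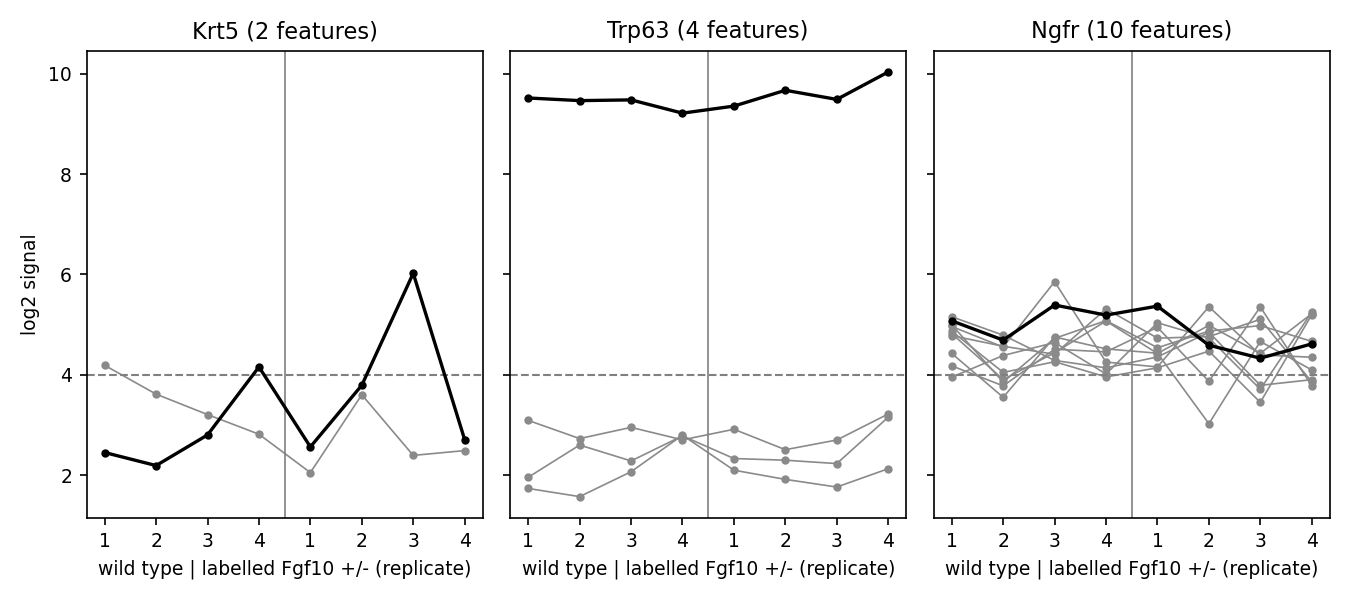
Log2 signal (vertical axis) of every feature named for Krt5, Trp63 and Ngfr on the 8 arrays, wild-type replicates 1 to 4 left of the vertical line and replicates 1 to 4 labelled Fgf10 +/- right of it. Each line is 1 feature, black for the one with the highest mean, and the dashed line marks 4. The Krt5 features part at 6.02 and 2.40 on 1 array, 1 Trp63 feature lies far above the other 3, and the 10 Ngfr features cross each other.

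Krt5, the type II keratin that defines basal cells, was under 4 on most arrays. The feature with the highest mean read 2.45, 2.19, 2.80 and 4.16 in wild-type replicates 1 to 4, and 2.57, 3.79, 6.02 and 2.71 in replicates 1 to 4 labelled Fgf10 +/-. The highest array, replicate 3 labelled Fgf10 +/-, was not high in the second Krt5 feature, which read 2.40 there. That second feature read 4.19, 3.62, 3.21 and 2.82 in wild-type replicates 1 to 4, and 2.05, 3.60, 2.40 and 2.49 in replicates 1 to 4 labelled Fgf10 +/-. The 2 features, annotated to the same transcript, differed between the groups in opposite directions, by 0.87 (standard error 0.79, limma adjusted p = 0.751) and by -0.82 (standard error 0.39, limma adjusted p over all features = 0.518). Their mean differed by 0.02 (exact permutation p = 0.943). Without replicate 3 labelled Fgf10 +/- the difference of the first feature was 0.12, and without wild-type replicate 4 it was 1.29. No direction can be given for Krt5 from these arrays.

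By the same measure of likeness, the 3 genes that followed the first Krt5 feature were Usf2 (r = 0.982), Hcn2 (r = 0.978) and Foxl2 (r = 0.952). With replicate 3 labelled Fgf10 +/- and wild-type replicate 4 left out, r was 0.967, 0.879 and 0.741. Since the second Krt5 feature had an r of -0.35 with the first, these describe 1 feature rather than the gene.

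Krt14 pairs with keratin 5 in basal cells. It read 3.01, 2.82, 4.64 and 3.70 in wild-type replicates 1 to 4 and 4.17, 4.35, 2.49 and 3.20 in replicates 1 to 4 labelled Fgf10 +/-. Both groups held arrays above and below 4, and their means were 3.54 ± 0.82 and 3.55 ± 0.87 (SD, n = 4 each). The difference of 0.01 had a 95% interval from -1.19 to 1.21 (limma adjusted p = 0.998). In fold terms the interval of the wild-type signal over the other runs from 0.432 to 2.29, and differences inside it in either direction are not excluded.

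Krt17, a type I keratin of activated basal cells, read 2.04, 3.68, 3.04 and 2.41 in wild-type replicates 1 to 4 and 2.36, 1.73, 2.49 and 2.10 in replicates 1 to 4 labelled Fgf10 +/-. Its difference of -0.62 (standard error 0.35) had the second lowest value of the 10, with all 8 arrays under 4 and overlapping groups (limma adjusted p = 0.584). It was -0.32 without wild-type replicate 2.

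Krt4 and Krt13, the suprabasal pair that also marks the hillock areas of tracheal epithelium, stayed under 4 on every array. Krt4 ranged from 1.61 to 3.58, and its difference of 0.33 rested on replicate 4 labelled Fgf10 +/- at 3.58. Without that library it was -0.06. Krt13 ranged from 1.91 to 2.67 with a difference of 0.07, and its second feature differed by -0.08.

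Dsg3 and Dsc3, the desmosomal cadherins of basal layers, were likewise under 4 on all 8 arrays. The brighter Dsg3 feature ranged from 1.90 to 3.05 and the other from 1.88 to 2.93, with differences of -0.29 and 0.02. The brighter Dsc3 feature ranged from 2.35 to 3.07 and the other from 1.96 to 3.34, with differences of -0.11 and 0.69. The second Dsc3 feature, with means of 2.15 and 2.84, had the largest upward difference among features other than those of Krt5 (exact permutation p = 0.0571; limma adjusted p over all features = 0.374). At this end of the scale the median gene had a within-group SD of 0.49, against 0.14 for genes with a mean log2 of 8 or more.

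**Figure D3:**
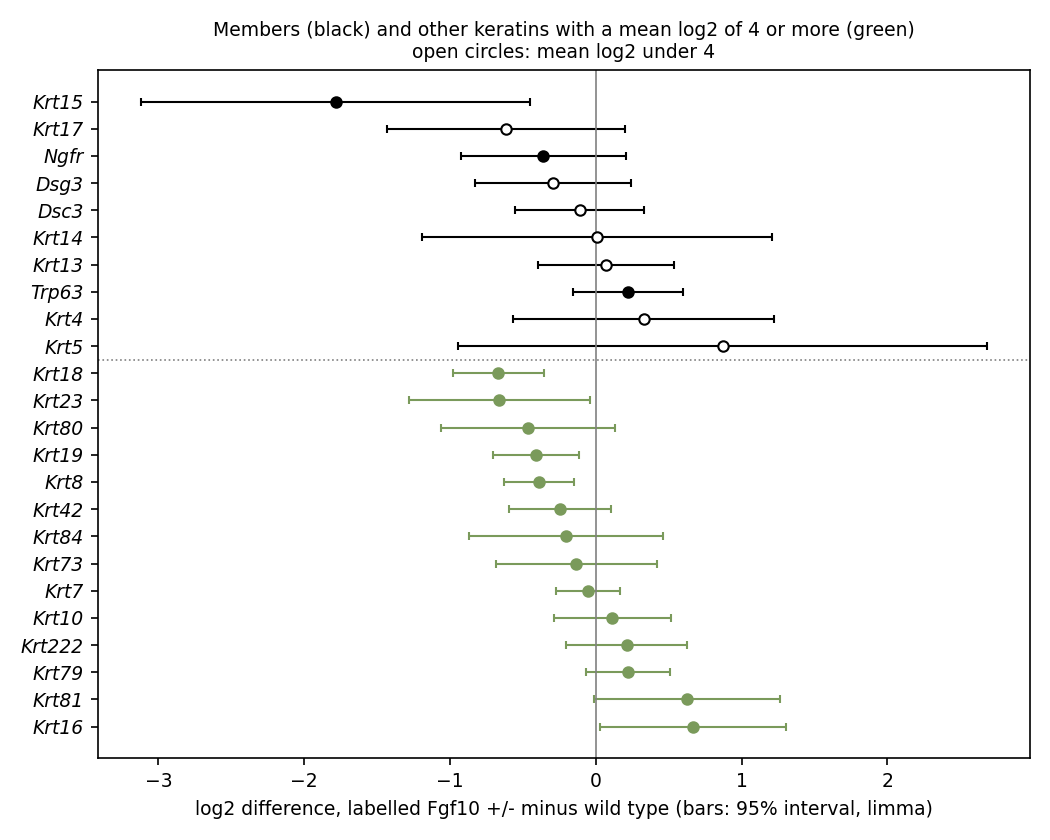
Log2 difference, libraries labelled Fgf10 +/- minus wild type (horizontal axis), with 95% intervals from limma. Black marks the 10 members. Green marks the 14 other keratin genes (symbols of Krt and a number) with a mean log2 of 4 or more. Open circles are genes with a mean log2 under 4. The interval of Krt15 (-3.12 to -0.45) is the only one among the members that leaves out 0, and among the other keratins those of Krt18, Krt19, Krt8 and Krt23 leave out 0 on the same side and that of Krt16 (0.03 to 1.31) on the opposite side.

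The keratins of the array place Krt15 among its relatives. The type I genes lie in a row on chromosome 11 and the type II genes on chromosome 15. The exception is Krt18, a type I gene that lies beside Krt8 on chromosome 15. Krt15 lies between Krt13 and Krt19 in a RefSeq gene table (GRCm38.p6). Protein-coding keratin genes were chosen after the members by symbols of Krt and a number. This leaves out symbols with a letter, such as Krt6a and Krt6b (mean log2 of 2.51 and 2.84). Of the 48 chosen genes that were measured, 15 had a mean log2 of 4 or more. Of these 15, 10 had a lower mean in the libraries labelled Fgf10 +/-, and the groups did not overlap for 3 (Krt18, Krt8 and Krt23), all lower, where 50.2% of all genes had a lower mean and 4.4% did not overlap and were lower. None passed in limma (adjusted p under 0.05), but with a variance trend Krt18 (8e-04), Krt8 (0.0173) and Krt19 (0.033) had an adjusted p under 0.05. Values under that setting were read only for the members and the listed genes, and so not for Krt23. Of the neighbours of Krt15, Krt19, a keratin of simple epithelium, was 10.97, 10.81, 10.77 and 10.54 in wild-type replicates 1 to 4 and 10.54, 10.36, 10.33 and 10.22 in replicates 1 to 4 labelled Fgf10 +/-, a difference of -0.41 (limma adjusted p = 0.289). As with Krt15, wild-type replicate 4 was the lowest of its group, and here it lay just below replicate 1 labelled Fgf10 +/-. Krt13, on the other side, lay near the floor.

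The simple keratins, known from luminal and alveolar epithelium, were bright in 4 of 5 genes. Those 4 had a lower mean in the libraries labelled Fgf10 +/-. The median log2 difference of the 5 was -0.39. The fifth, Krt20, had a mean log2 of 3.36 and differed by 0.73 in the opposite direction (limma adjusted p = 0.480). Krt18 was 12.16 ± 0.21 (SD, n = 4) in wild type and 11.49 ± 0.13 (SD, n = 4) in the libraries labelled Fgf10 +/-, a difference of -0.67, and Krt8, its type II partner, was 10.88 ± 0.13 against 10.50 ± 0.04, a difference of -0.39. The groups did not overlap for either (two-sided exact permutation p = 0.0286 each, the smallest possible; limma adjusted p = 0.160 and 0.237). Markers of other epithelial cells also had lower means, in 6 of 6 club cell genes (median difference -0.45), 6 of 6 ciliated cell genes (-0.60) and 10 of 10 alveolar genes (-0.40). The groups did not overlap, with the lower values in the libraries labelled Fgf10 +/-, for 4 of the 6 club cell genes, 2 of the 6 ciliated cell genes and 8 of the 10 alveolar genes, against 4.4% of all genes. The lists were chosen with earlier results of these data known, so these counts describe the listed genes and are no test. The lower means include Scgb1a1 (-0.03) and Sftpc (-0.0024), which lie at the top of the signal scale, where no direction can be read, and the sign for Sftpc changed with the scaling. Among the genes without overlap were Aldh1a7 (-0.63) and Sec14l3 (-0.47) of club cells, Cfap126 (-0.69) and Tppp3 (-0.48) of cilia, and Napsa (-0.93) and Etv5 (-0.74) of the alveolus. The part of these cells in the Krt15 difference was not tested.

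Desmosomes, the junctions to which keratin filaments attach, held genes that were lower and genes that were higher. Of 13 desmosome genes besides the members, 9 had a lower mean, 8 had a mean log2 of 4 or more, and the groups did not overlap for 2, both lower, where 4.4% of all genes did so. Their median difference was -0.15, and -0.33 to -0.04 with each library left out in turn. Pkp2, the plakophilin of simple epithelium and heart, was 9.55, 9.39, 9.54 and 9.47 in wild-type replicates 1 to 4 and 8.87, 9.10, 8.99 and 8.91 in replicates 1 to 4 labelled Fgf10 +/-. The wild-type values all lay above the others, by -0.52 on the log2 scale as a difference of means (limma adjusted p = 0.157; 0.0448 when genes with a mean log2 under 4 were left out and 0.0076 with a variance trend). Dsp, the linker between desmosome and keratin, differed by -0.46 (limma adjusted p = 0.235). Perp, a p63 target in desmosomes, differed by -0.53 and Ppl by -0.45. In the other direction, Jup, which encodes plakoglobin, differed by 0.57, the widest of the 8 brighter genes, Pkp3 by 0.10 and Pkp4 by 0.07. The widest of all 13 was Dsg2, with a mean log2 of 3.60, at -1.09 (limma adjusted p = 0.439). With all its features averaged, Dsg2 differed by -0.37. Perp, Ppl, Jup, Pkp3, Pkp4 and Dsg2 were chosen after their values were seen, and the groups overlapped for each. The desmosomal cadherins of basal layers, Dsg3 and Dsc3, lay near the floor, as given above.

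Other parts of the basal cell were read from 2 further lists. Of 8 measured genes of the hemidesmosome and its laminin, which hold basal cells to the basement membrane, the groups did not overlap for 0, the median difference was -0.11, and the 2 with the smallest p were Itgb4 (-0.30) and Lamb3 (-0.20). Among 14 other genes known from basal cells the mean was lower for 11 and the median difference was -0.13, or -0.02 to -0.23 with each library left out in turn. Snai2, which encodes the transcription factor SLUG of basal and mesenchymal cells, was the 1 gene of these whose groups did not overlap, and it was higher in the libraries labelled Fgf10 +/-, at 10.58 ± 0.14 against 10.10 ± 0.19 (SD, n = 4 each; log2 difference 0.48; limma adjusted p = 0.247; 0.108 when genes with a mean log2 under 4 were left out and 0.0149 with a variance trend). The adhesion molecule gene Bcam differed by -0.18. Groups that do not overlap with a higher mean made up 2.99% of all genes.

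Suprabasal and cornified epithelium genes were mostly near the floor, with 12 of 19 under 4 and a median difference of -0.05. That median ran from -0.10 to 0.09 with each library left out in turn. It was 0.10 for the 7 genes with a mean log2 of 4 or more. The 2 with the smallest p among the brighter ones were Krt16, at 3.99 ± 0.26 in wild type and 4.66 ± 0.56 in the libraries labelled Fgf10 +/- (0.67; limma adjusted p = 0.437), and Cnfn (0.54; limma adjusted p = 0.413). Krt16 lies between Krt14 and Krt17 in the keratin row and differed in the opposite direction to Krt17, with neither passing.

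**Figure D4:**
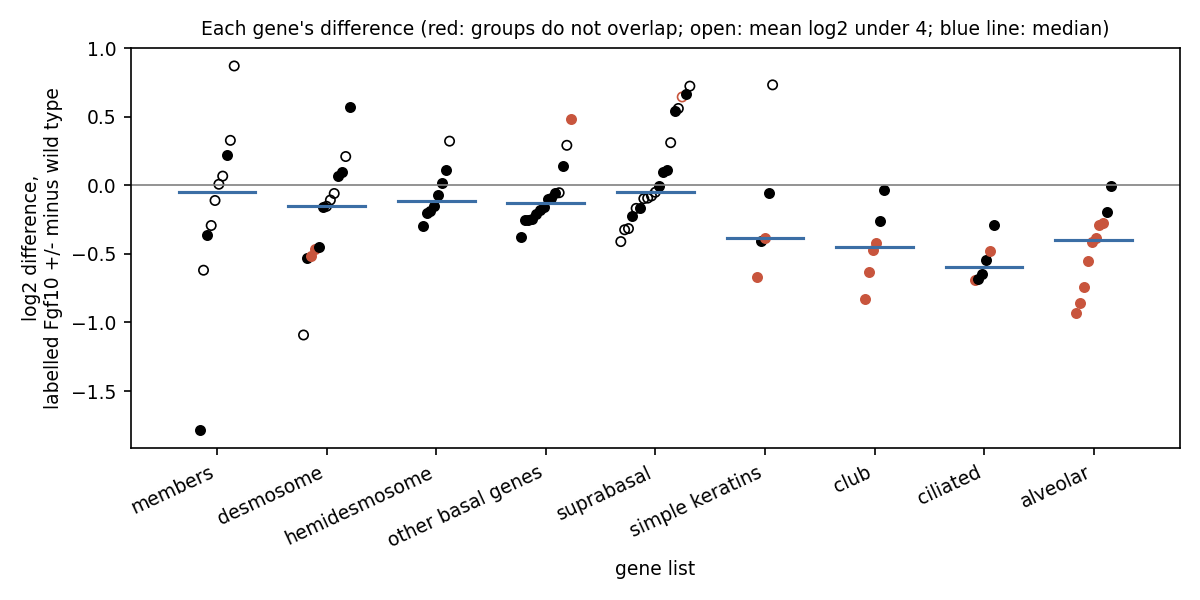
Log2 difference, libraries labelled Fgf10 +/- minus wild type (vertical axis), of each gene in 9 lists (horizontal axis). Points are genes, red where the groups do not overlap and open where the mean log2 is under 4, and blue lines are medians. The members scatter around a median of -0.05 with Krt15 lowest at -1.79. The simple keratin (-0.39), club (-0.45), ciliated (-0.60) and alveolar (-0.40) medians lie lowest. Those of the desmosome (-0.15), hemidesmosome (-0.11), other basal (-0.13) and suprabasal (-0.05) lists also lie below 0. The suprabasal median changed sign with each library left out in turn (-0.10 to 0.09).

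Partners of Ngfr were also read. Of 5 measured neurotrophin and receptor genes besides Ngfr, with a median of 0.34 (0.10 to 0.61 with each library left out in turn), Sort1, which encodes the co-receptor sortilin, was lower without overlap (-0.30; limma adjusted p = 0.342) and Ntf5, which encodes a neurotrophin, differed by -0.46. The other 3 had higher means, with overlapping groups. The neurotrophin gene Bdnf differed by 0.79, the widest of the 5, and the receptor genes Ntrk2 and Ntrk3 by 0.40 and 0.34. With all features of a gene averaged, Ntrk2 differed by only 0.0064 and Ntrk3 by 0.53. Schwann cell genes, whose cells also carry p75, had a median of 0.02 over 7 genes. The Schwann cell regulators Sox10 and Foxd3 had means under 4. Mbp was lower without overlap (-0.43; limma adjusted p = 0.338), as 1 of the 7 genes, and Pmp22 differed by 0.04. Groups that do not overlap with a lower mean made up 4.4% of all genes.

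Further tissues, thymus and thyroid with their own epithelium and cartilage and skeletal muscle, were read through their own markers. Of 11 genes of thymic epithelium and thymocytes, 10 had a mean log2 under 4, among them the thymic epithelial factor Foxn1. The median difference was 0.06, with the chemokine gene Ccl25 at 0.24. With all its features averaged, Ccl25 differed by -0.09, so no direction can be given for it. All 7 thyroid and parathyroid genes were under 4, with a median of 0.31. The cartilage list had a median of -0.85, with Chad at -1.30 and Cytl1 at -0.37. The skeletal muscle list had a median of -0.87, with Atp2a1 at -0.74 and Eno3 at -0.58. Without wild-type replicate 4 these medians were 0.05 and -0.15. Chad then still differed by -0.95, Atp2a1 by -0.60 and Eno3 by -0.39, but Cytl1 by only -0.07. The mean was then lower for 5 of 11 cartilage genes and 9 of 14 muscle genes. With every library kept, the groups did not overlap for 3 of the 14 muscle genes, Eno3 among them, all lower. This held for 0 of the 11 cartilage genes and 4.4% of all genes. In wild-type replicate 4, Krt5 at 4.16 in its first feature was the highest wild-type value, and its second feature at 2.82 was the lowest. Krt15 in the same library, at 5.61, was the lowest wild-type value.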

How the data were processed

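Total RNA of 8 lungs was amplified and hybridised with Cy3 label, per the labels' protocols. The deposited values are log2 signals of 62976 features, which the authors had quantile normalized (sorted values differed by at most 0.0042 from array to array), using limma per the submitters' processing notes. No source used here gives the background correction, which sets how far differences near the floor are compressed. The number of arrays, 4 per group, limits the precision.

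Features were named from the platform annotation (31465 with 1 symbol, 0 with several, 31511 with none), and symbols were updated through RefSeq accessions (GRCm38.p6; 29050 matched). Features with a blank were left out. The feature with the highest mean stood for a gene. The test was limma 3.58.1 in R 4.3.3 (group only, two-sided, Benjamini-Hochberg over 20842 genes, threshold 0.05), fitted on all 8 arrays and tested on simulated data; moderated standard errors and 95% intervals are its own. Exact permutation tests of group means ran over 70 assignments. Adjusted p-values given over all features come from 31425 features tested singly.

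The members and lists were chosen with earlier results of these data known. A rule named all members, Fgf10, the 2 genes with the smallest p and a mean log2 of 4 or more from each of 14 lists, and the 3 genes most correlated with Krt5, Krt15 and Trp63. Some listed genes are not reported here. Alternatives were other features, scalings, filters and variance models, array weights, a block on the replicate number, and leaving out libraries. Figures were drawn with matplotlib 3.10.9.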

Additional observations from a re-analysis of the deposited data

Results flagged for a closer look

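Among 100 groups of 4 values examined for an array far from the other 3 of its group (10 members, 25 named genes and 15 lists in each group), 7 were beyond Dixon's 95% critical value, where chance alone gives about 1 in 20. No member was among them. The mean log2 signal of the cartilage list was 7.47 in wild-type replicate 4, and that of the skeletal muscle list was 7.42 there. The club cell list was low in the same library, at 12.01 against 12.22 to 12.24 in the other wild-type libraries, and high in replicate 3 labelled Fgf10 +/-, at 11.97 against 11.64 to 11.68. Sec14l3 was high in the latter library at 12.59. Dsp was high in replicate 2 labelled Fgf10 +/-, at 8.39 against 8.09 to 8.12, and Bcam was low in replicate 4 of that group, at 9.91 against 10.18 to 10.23.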

How the results depend on the processing

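The count of genes past an adjusted p of 0.05, 0 in the reported fit, was 104 with genes under a mean log2 of 4 left out, 288 with the dimmer genes left out at the median, 414 with a variance trend and 3 with array weights. It ranged from 0 to 1 with each library left out. No member passed under any alternative, and Krt15 kept its sign in all 18, with adjusted p from 0.117 to 0.546. Signs reversed for single features of Krt5 (-0.82), Krt13 (-0.083), Trp63 (-0.034 and -0.067), Ngfr (0.10, 0.20, 0.43, 0.26 and 0.031), Dsg3 (0.021) and Dsc3 (0.69), and with all features averaged for Krt13 (-0.0079) and Dsc3 (0.29). With each library left out, Krt14 ranged from -0.26 to 0.37, Krt4 from -0.059 to 0.60, Krt13 from -0.066 to 0.20 and Dsc3 from -0.22 to 0.017. The median over the members, -0.05, was -0.36 and -0.78 under the 2 filters on dim genes, which keep 3 and 2 members. It ranged from -0.18 to 0.05 with libraries left out in turn. Rescaling moved the median of all genes by at most 0.02. Same-numbered libraries correlated between 0.02 and 0.11 in their deviations over all genes. For wild-type replicates 1 and 4 the most correlated library labelled Fgf10 +/- had the same number, and for 2 and 3 it did not. These values cannot decide whether the numbers mark pairs. The labels call the samples independent, so the reported fit takes no pairs. With the replicate block, 0 genes passed. Krt15 then stood at -1.79 with a standard error of 0.15, against 0.58 without the block, and a limma adjusted p of 0.293.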
